A study of Mus musculus with 5 samples.

Results

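The triggering receptors expressed on myeloid cells (TREM) are a small family of cell surface immune receptors. Described here are 5 of their genes, Trem1, Trem2, Trem3, Treml2 and Treml4, together with Tyrobp. Tyrobp encodes the signalling adaptor used by most, though not all, TREM receptors. The 6 genes were taken by symbol from the 19505 genes of the table, each had 1 probe set, and they were chosen by their symbols with the differences between the groups already known, in particular the opposite directions of Trem1 and Trem2. Their differences between the groups are therefore given as a description, with no p-value, and how many of them passed the test over all genes is printed only beside the share of all genes that did. The data were 5 expression arrays of tumour-associated macrophages, 3 from mice lacking MyD88 (MyD88-ko) and 2 from wild-type (WT) mice, which addressed which transcripts depend on MyD88, a cytosolic adaptor used by nearly all Toll-like receptors and by receptors of the IL-1 family. In both groups the mice were C57BL/6, female or male and 6 to 12 weeks old, and carried a subcutaneous tumour of B16-F10 cells, a mouse melanoma line. The cells were sorted at day 15 for CD45, F4/80 and CD11b and against CD3, B220 and NK1.1. The protocol gives spleen cells as the starting material, while the labels call the samples tumour-associated macrophages. The labels state neither how the MyD88-ko allele was made nor whether each array held RNA of a separate mouse, so any p-value below measures only the spread between these arrays.

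TREM receptors have short cytoplasmic tails, and most of them signal by pairing with Tyrobp (also called DAP12), whose immunoreceptor tyrosine-based activation motif (ITAM) recruits the kinase Syk. TREM-1 is found on neutrophils and monocytes and amplifies the response to Toll-like receptor ligands, whereas TREM-2 is found on macrophages, microglia and osteoclasts, binds lipids and lipoproteins and supports phagocytosis and lipid handling. Because most TREM receptors share the adaptor, its own level is given beside theirs.

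Trem1 and Trem2 lie in 1 gene cluster on chromosome 17. The sequences just upstream of these genes are shown because the pair differed in opposite directions between the groups although they share a cluster. They are not adjacent: Trem3, Treml4, Treml2 and B430306N03Rik lie between them. The sequences are the forward strand of GRCm38.p6 from RefSeq, 224 bases for Trem1 and 250 for Trem2, and end at the base before the first annotated base of the gene (chr17:48232489-48232712 and chr17:48346151-48346400). Capitals mark matches to the motifs searched.
Trem1: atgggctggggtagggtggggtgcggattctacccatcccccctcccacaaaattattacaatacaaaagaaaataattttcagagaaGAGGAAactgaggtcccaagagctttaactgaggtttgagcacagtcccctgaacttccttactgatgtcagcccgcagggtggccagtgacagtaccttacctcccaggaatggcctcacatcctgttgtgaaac
Trem2: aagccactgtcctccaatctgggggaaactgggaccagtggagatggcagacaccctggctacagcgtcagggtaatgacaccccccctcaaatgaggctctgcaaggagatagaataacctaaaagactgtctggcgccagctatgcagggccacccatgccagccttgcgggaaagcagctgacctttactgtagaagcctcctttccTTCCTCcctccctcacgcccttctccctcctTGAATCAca
The motifs were GAGGAA for the myeloid factor PU.1, TGANTCA for AP-1, TTGCNNAA for C/EBP and, for NF-kB, GGGA followed after any 4 bases by CC, searched on both strands of windows of 300 bases (250 before and 50 after the start that RefSeq gives). The Trem1 window held 1 match, GAGGAA on the forward strand. Counted on either strand, these letters were found in 28.3% of 32851 such windows. The Trem2 window held the PU.1 letters on the reverse strand, 1 AP-1 match (7.81% of windows) and, after the start and so not shown, 1 C/EBP match (10.8% of windows). The NF-kB letters, present in 20.7% of windows, were in neither window, which says only that these letters are not there. Windows were at hand for 3 of the 6 genes, the third being Treml4.

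The values are log2 and were normalized with the RMA method. Array medians over all rows lay between 4.33 and 4.42, and pairs of arrays correlated across genes at Pearson r between 0.969 and 0.992. Each array was given a background limit, the value that 95% of its 5222 negative control probe sets did not exceed. It lay between 6.55 and 6.74 on the MyD88-ko arrays and at 6.91 and 6.96 on the WT arrays, which left 3968 to 4334 genes above it in MyD88-ko and 3420 and 3480 in WT. Myd88 itself, the targeted gene, was at 7.73, 7.01 and 7.58 in MyD88-ko and 8.46 and 8.40 in WT, above the limit on all 5 arrays and lower on every MyD88-ko array, but did not pass (limma, adjusted p = 0.179). Where its probes lie relative to the change in the MyD88-ko allele, which the labels do not describe, was not tested. Of the genes of the sort markers and the macrophage lineage, Adgre1 (8.75 to 9.36), the gene of F4/80, Itgam (9.94 to 10.89), the gene of CD11b, and Csf1r (10.34 to 10.64) were above the limit on every array, while Cd3e and Klrb1c, of the cells gated out, were under it throughout. Tyrp1, a pigment gene of the melanoma cells, was at 10.34 to 10.92 despite the CD45 gate, and its groups overlapped. The mean of 3 Y-linked genes was 4.60 to 5.51 in MyD88-ko and 5.89 and 6.03 in WT, lower on every MyD88-ko array. Each of these means lay under the background limit of its array. The part of sex in the results was not tested.

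Trem1 was the TREM gene with the widest separation between the groups. It measured 5.89, 5.88 and 6.32 on the MyD88-ko arrays and 8.11 and 8.35 on the WT arrays. All MyD88-ko values lay below both WT values and below the background limit, whereas both WT values lay above it. MyD88-ko averaged 6.03 ± 0.25 (SD, n = 3) and WT averaged 8.23 ± 0.17 (SD, n = 2), for a log2 difference of -2.20 with a standard error of 0.17. Since the gene was measured above background in WT alone, its fold is a bound: Trem1 was at least 3.04-fold lower in MyD88-ko, from the WT mean against the background limits of the MyD88-ko arrays, which exceeded the values there. With a looser limit, which 90% of the negative controls did not exceed, Trem1 was above background on all 5 arrays, and the ratio of the measured means was 4.60. Of the 19505 genes, Trem1 had the 25th most negative difference.

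Trem2 differed the other way. It measured 8.05, 8.59 and 8.004 in MyD88-ko and 6.44 and 7.77 in WT. The groups did not overlap, but the WT arrays lay further apart from each other than WT replicate 2 lay from the nearest MyD88-ko array, and WT replicate 1 was under the background limit. MyD88-ko averaged 8.22 ± 0.33 (SD, n = 3) and WT averaged 7.10 ± 0.94 (SD, n = 2), for a log2 difference of 1.12 with a standard error of 0.40, or 2.17-fold higher in MyD88-ko with 1 of 2 WT arrays above the limit. The size rested on WT replicate 1: without it the log2 difference was 0.45, and without WT replicate 2 it was 1.78. WT replicate 1 also gave the lowest value of 41.5% of the 4702 genes above the limit on at least 1 array, where WT replicate 2 gave the lowest of 10.1%.

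**Figure D1:**
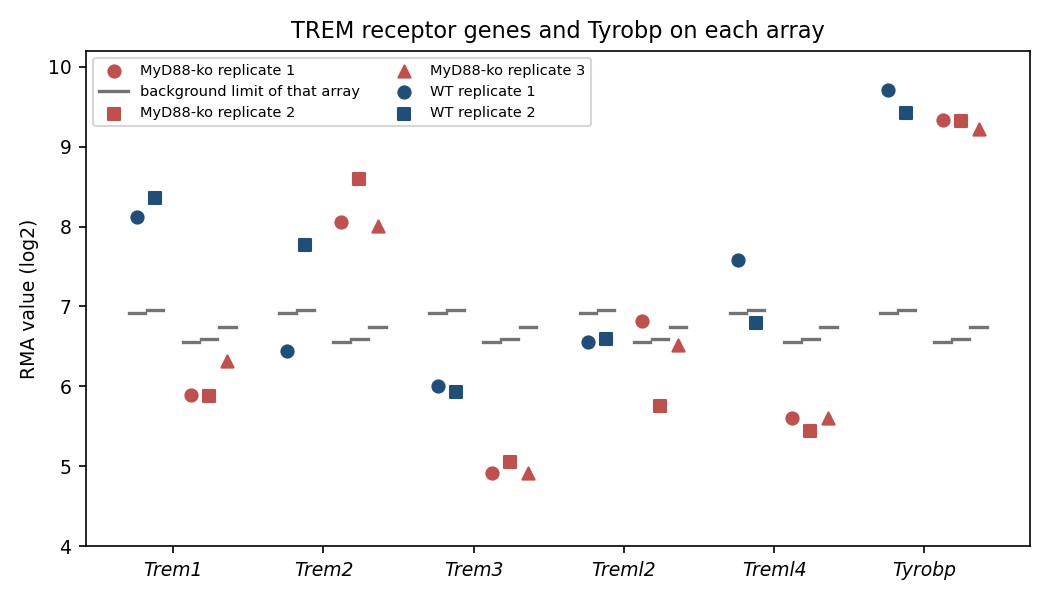
RMA values (vertical axis, log2) of the 5 TREM genes and Tyrobp on each of the 5 arrays; colours give the genotype, shapes the replicate number, and grey dashes the background limit of each array. Trem1, Trem3 and Treml4 sit lower on all 3 MyD88-ko arrays than on both WT arrays, Trem2 sits higher, with WT replicate 1 far below the rest at 6.44, and Tyrobp spans only 9.23 to 9.71.

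Subtracting Trem2 from Trem1 within each array removes a shift shared by all log2 values of that array. It does not remove a difference in background. The subtracted value was -2.16, -2.71 and -1.68 in MyD88-ko and 1.68 and 0.59 in WT. The groups were separated by 2.27, against ranges within them of 1.03 (MyD88-ko) and 1.09 (WT). MyD88-ko arrays averaged -2.19 ± 0.52 (SD, n = 3) and WT arrays 1.13 ± 0.77 (SD, n = 2), which differ by -3.32 on the log2 scale. Trem1 readings in MyD88-ko all fell short of the limit, as did the Trem2 reading of WT replicate 1. The size of this contrast, and of the gap, thus rests partly on readings within background and is not fully measured. With each array left out in turn the difference lay between -3.86 and -2.77. The sign of the subtracted value within a group has no meaning, since probe sets of different genes are not on a common scale, and the contrast of these genes is what brought them together.

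**Figure D2:**
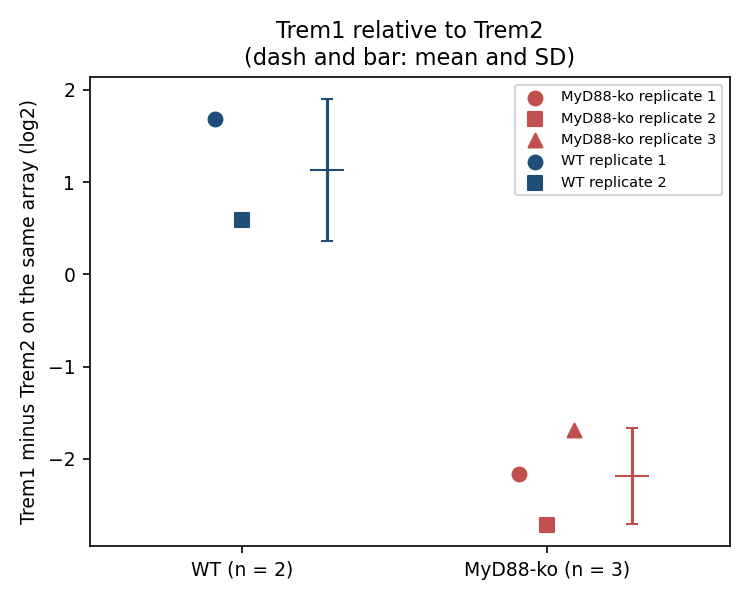
Log2 value of Trem1 minus that of Trem2 on the same array (vertical axis) for the 2 WT and 3 MyD88-ko arrays, with the mean and SD of each group as dash and bar. The WT arrays sit at 0.59 and 1.68 and the MyD88-ko arrays between -2.71 and -1.68. The genes were chosen for this contrast, so the separation is a description, and the position of 0 has no meaning. Trem1 in MyD88-ko and Trem2 in WT replicate 1 were under the limit, so the size is not fully measured.

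Trem3, a receptor of mouse macrophages and neutrophils that also pairs with Tyrobp, measured 4.91, 5.05 and 4.92 in MyD88-ko and 6.00 and 5.93 in WT. Its replicates were the closest together of the 6 genes in MyD88-ko after Tyrobp, and its groups did not overlap, with averages of 4.96 ± 0.08 (SD, n = 3) for MyD88-ko and 5.96 ± 0.05 (SD, n = 2) for WT and a log2 difference of -1.005 (standard error 0.10). All 5 values were under the background limit, brighter than 78.7% to 88.6% of the negative controls, so no fold is given. Treml4, known from non-classical monocytes and some dendritic cells and macrophages, where it promotes Toll-like receptor 7 signalling, measured 5.604, 5.44 and 5.598 in MyD88-ko and 7.58 and 6.79 in WT. The MyD88-ko arrays were tightly grouped and lower than both WT arrays, of which only WT replicate 1 was above the limit. MyD88-ko averaged 5.55 ± 0.09 (SD, n = 3) and WT averaged 7.18 ± 0.56 (SD, n = 2), with a log2 difference of -1.64 (standard error 0.23). By the WT mean against the limits of the MyD88-ko arrays, Treml4 was 1.47-fold lower in MyD88-ko. That mean includes WT replicate 2, which was under the limit, so 1.47 is not a firm bound.

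Treml2, a receptor of neutrophils, macrophages and lymphocytes, showed no separation. It measured 6.82, 5.76 and 6.52 in MyD88-ko and 6.56 and 6.59 in WT, so the MyD88-ko arrays lay on both sides of the WT arrays. MyD88-ko averaged 6.37 ± 0.55 (SD, n = 3) and WT 6.57 ± 0.02 (SD, n = 2), and the log2 difference of -0.21 (standard error 0.30) turned to 0.10 without MyD88-ko replicate 2. It was above the limit on 1 array, MyD88-ko replicate 1. Tyrobp, the adaptor, was the 1 gene of the 6 above the limit on all arrays, at 9.33, 9.32 and 9.23 in MyD88-ko and 9.71 and 9.42 in WT. The groups did not overlap, but by a small margin: MyD88-ko averaged 9.29 ± 0.06 (SD, n = 3) and WT averaged 9.57 ± 0.21 (SD, n = 2), with a log2 difference of -0.27 (standard error 0.13) or 1.21-fold lower in MyD88-ko. Without WT replicate 1 the difference was -0.12, and without WT replicate 2 it was -0.42. The adaptor differed by far less than Trem1, Trem2 and Treml4 did.

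Over all 19505 genes, 37 passed (limma, Benjamini-Hochberg adjusted p under 0.05), which is 0.190% of them (0.185% lower and 0.00513% higher in MyD88-ko). Of the 6 genes, 2 were among these, Trem1 and Trem3, both lower. With each array left out in turn limma called 0 to 1 genes in all (1691 to 3762 at an unadjusted p under 0.05), and none of the 6. Of the 6, 1 passed with array weights, 1 with the replicate number as a block and 3 at an adjusted p under 0.1. Arrays of the groups did not overlap for 5 of the 6 genes, 4 lower in MyD88-ko (Trem1, Trem3, Treml4 and Tyrobp) and 1 higher (Trem2), against 27.8% of all genes, of which 12.9% were lower and 14.8% higher. As the genes were chosen from this contrast, nothing is read from these counts.

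In the order of the chromosome the measured genes of the cluster are Trem1, Trem3, Treml4, Treml2, B430306N03Rik (also called Treml6), Trem2 and Treml1, and each had its own difference. The neighbouring Trem1, Trem3 and Treml4 had log2 differences of -2.20, -1.005 and -1.64, Treml2 and B430306N03Rik were near 0 at -0.21 and -0.10, and Trem2 was at 1.12. B430306N03Rik was above the limit on all arrays, at 7.59 to 8.50 in MyD88-ko and 8.03 and 8.38 in WT, and did not pass (limma, adjusted p = 0.913). Treml1, a receptor of platelet granules, was under the limit on all arrays, between 4.59 and 4.83, and did not pass (adjusted p = 0.719). The 5 measured genes on either side of this stretch had differences between -0.33 and 0.24, and 1 of them, 9830107B12Rik at 0.24, has the synonym Trem5. None of these genes passed (limma, adjusted p from 0.539 to 0.912), and 9 of the 10 were under the limit on all arrays. Of these flanking genes, Nfya, a subunit of the CCAAT-binding factor, was above the limit on every array except WT replicate 2 and had a log2 difference of 0.14.

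**Figure D3:**
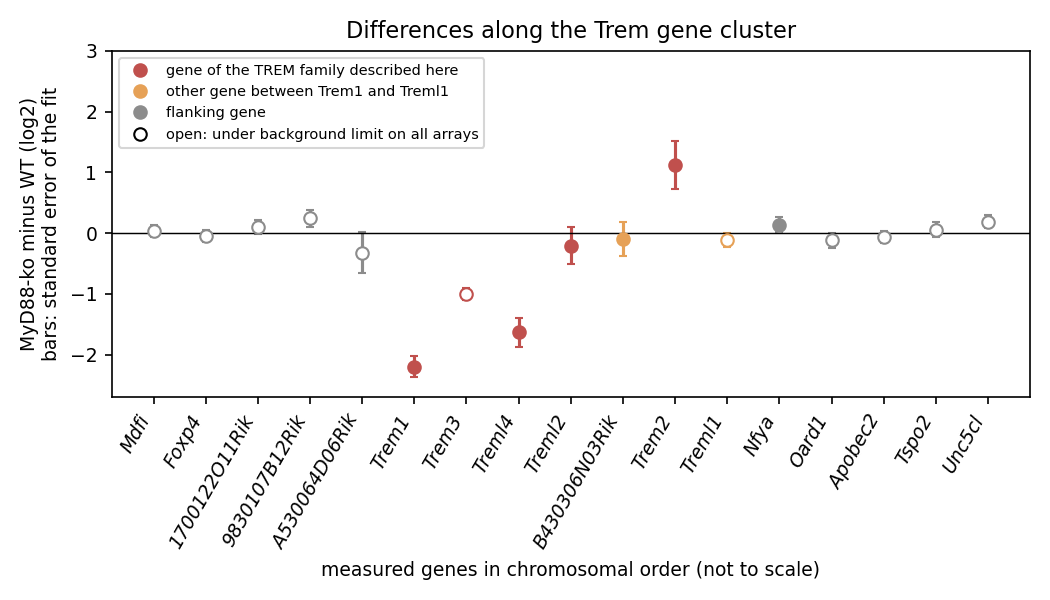
Log2 difference of MyD88-ko minus WT (vertical axis, bars are standard errors of the limma fit) for the measured genes of the Trem cluster and 5 genes on either side, in chromosomal order and not to scale; open circles mark genes under the background limit on every array. Trem1 (-2.20), Trem3 (-1.005) and Treml4 (-1.64) are low neighbours, Trem2 is high (1.12), and the flanking genes stay between -0.33 and 0.24.

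Genes whose values followed those of a TREM gene most closely over the 5 arrays were found by the root mean square difference of mean-centred log2 values, among 4632 of the 4702 genes above the limit on at least 1 array, the rest being the gene itself, genes with predicted or clone names, olfactory receptors and small RNAs. The nearest to Trem1 were Mxd1, a MAX-binding repressor (0.16), Olr1, a receptor for oxidized LDL (0.19), Csf3r, the G-CSF receptor (0.20), Hcar2, a receptor for hydroxybutyrate and niacin (0.20), and Hp, which encodes haptoglobin (0.20). The nearest to Trem2 were closer, Nav2 (0.05), Akr1b8 (0.06), the histone gene H2bc12 (0.06), the mitotic kinesin Kif2c (0.11) and Tmem144 (0.11), and all 5 had their lowest value on WT replicate 1. Nav2, for example, was at 7.18, 7.77 and 7.16 in MyD88-ko and 5.66 and 7.04 in WT. Treml4 was followed most closely by Pot1b, Sirpb1c, Mefv, Parp8 and Tnf (0.20 to 0.22). Treml2 was followed by Lrrk1, Egln1, Higd1a, Bnip3 and Ets1 (0.08 to 0.12), each lowest on MyD88-ko replicate 2. Tyrobp, which varied little, was followed by Rpl41, Rps23, Cnih4, Limd2 and Gng5 (0.02 to 0.04), 2 of which encode ribosomal proteins.

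Across the genes that work with the TREM receptors, those that passed were all inflammatory genes and all were lower. Of 101 genes measured in 9 lists, 3 passed over all genes (limma), and the median log2 difference of the 101 was -0.14, against 0.015 over all genes. The 3 were lost with each array left out in turn, when 27 to 45 of the 101 had an unadjusted limma p under 0.05. Among other receptors listed as using Tyrobp, a pairing not tested here, none of 14 passed, 10 had negative differences and the median was -0.48. Sirpb1c, a signal-regulatory protein, was at 8.06 ± 0.40 (SD, n = 3) and 9.58 ± 0.45 (SD, n = 2), a log2 difference of -1.52 (limma, adjusted p = 0.141). Clec5a, a C-type lectin that senses viruses, was 1.48-fold lower by the WT mean against the limits of the MyD88-ko arrays (limma, adjusted p = 0.112). Only WT replicate 1 was above the limit for it, so 1.48 is not a firm bound. Cd300ld had a difference of -0.50 (limma, adjusted p = 0.186). Plxna1, a plexin that joins TREM-2 and Tyrobp in one complex in dendritic cells and osteoclasts, stood on the other side with a log2 difference of 0.73 (adjusted p = 0.262).

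Of 9 adaptors and kinases next to the receptor none passed, and the median was -0.18 (-0.31 without MyD88-ko replicate 3). Fcer1g, the related adaptor of Fc receptors, was at 10.73, 10.90 and 10.79 in MyD88-ko and 11.08 and 10.84 in WT, which overlap. Hcst, the adaptor DAP10 that can join TREM-2 signalling, was not above the limit on any array. Syk, the kinase recruited by Tyrobp, had a difference of -0.28 (limma, adjusted p = 0.448), Btk of -0.29 (adjusted p = 0.493) and the Src-family kinase Fgr of -1.23 (adjusted p = 0.238). Fgr was lowest on MyD88-ko replicate 2, at 5.68 against 6.75 and 6.80 on the other MyD88-ko arrays.

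Further downstream none of 26 genes passed, with 15 negative and 11 positive differences and a median of -0.055, which lay between -0.11 and -0.0059 with 1 array left out. Malt1, a paracaspase that links ITAM receptors to NF-κB, had a difference of -0.89 (limma, adjusted p = 0.210), the PI3-kinase adaptor Pik3ap1 of -0.43 (adjusted p = 0.210) and the kinase Akt1 of 0.40 (adjusted p = 0.238). Blnk, an adaptor between Syk and phospholipase C, measured 7.497, 8.22 and 7.66 in MyD88-ko and 5.72 and 7.10 in WT, with WT replicate 1 lowest as for Trem2 (adjusted p = 0.271). Among 11 inhibitors none passed and the median was -0.07 (-0.13 to -0.0083 with 1 array left out). Tnfaip3, the NF-κB feedback inhibitor A20, had a difference of -1.27 (adjusted p = 0.104), and Dok3 and the phosphatase Ptpn6, which restrain ITAM signals, had differences of -0.56 (adjusted p = 0.186) and -0.41 (adjusted p = 0.276).

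None of 7 proposed ligand genes passed. None of the 4 genes of the sheddase list passed either, Adam10, Adam17, Mmp9 and Bsg, of which Bsg does not encode a protease. The lipoprotein gene Apoe, a TREM-2 ligand, was at 11.69 to 11.80 in MyD88-ko and 11.41 and 11.72 in WT, which overlap. Lgals3, which encodes galectin-3, had a log2 difference of 0.51 (limma, adjusted p = 0.379) and the chaperone gene Hspd1 of 0.09 (adjusted p = 0.841). Pglyrp1, a proposed TREM-1 ligand of neutrophil granules, was under the limit on all arrays, at 4.201 to 4.585 in MyD88-ko and 5.17 and 5.44 in WT. The proteases Adam10 and Adam17, which release soluble TREM-2, had differences of 0.31 (adjusted p = 0.497) and -0.22 (adjusted p = 0.458). Mmp9, implicated in the release of soluble TREM-1, was above the limit on WT replicate 2 only, so no fold is given. It was at 4.365 to 5.069 in MyD88-ko and 6.16 and 7.34 in WT (limma, adjusted p = 0.138).

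Of the inflammatory genes that TREM-1 is known to amplify, 3 passed over all genes, all lower, all 14 measured had negative differences, and the median was -1.44. Il1b, which encodes IL-1β, fell from 11.33 and 10.79 in WT to 8.59, 8.47 and 9.13 in MyD88-ko (limma, adjusted p = 0.041). The neutrophil chemokine gene Cxcl2 fell by 1.57 on the log2 scale (adjusted p = 0.039), and the inflammasome sensor gene Nlrp3 fell by 1.44 (adjusted p = 0.039). These genes are also direct targets of MyD88 signalling, so which receptor their level reflects cannot be told apart in this design. Neutrophil markers (median -1.43, 6 of 14 passed, all lower) and classical monocyte markers (median -1.65, 1 of 8 passed, lower) differed in the same direction, and the part of those cells in the inflammatory genes was not tested. MyD88-ko replicate 2 was the lowest array for 13 of the 14 genes.

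Genes known to depend on TREM-2 in macrophages and microglia lay on the other side without passing: 13 of 16 had positive differences, the median was 0.38, and none passed over all genes. The lowest p-values were those of Gpnmb, a lysosomal glycoprotein gene, at 0.72 (limma, adjusted p = 0.144), Csf1, at -1.11 (adjusted p = 0.204), and lipoprotein lipase, Lpl, at 1.03 (adjusted p = 0.215). As with Trem2, the size rested on WT replicate 1, which was the lowest array for 12 of the 16 genes. Without it the median was 0.18, and without WT replicate 2 it was 0.60.

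Markers of other myeloid cells that carry these receptors mostly had negative differences, though not all of them. Of 14 neutrophil markers 6 passed, all lower, and their summed linear signal was 397 to 558 in MyD88-ko and 2556 and 3601 in WT. The 6, S100a8, S100a9, Lcn2, Retnlg, Cxcr2 and Stfa2l1, stayed under the limit on each MyD88-ko array. Of the 14, 7 were under it on all 5 arrays, among them Stfa2l1 and the granule genes Camp, Ngp and Ltf. Of 8 classical monocyte markers 7 had negative differences and 1 passed, Hp, lower. Their summed signals were 2926 to 4616 in MyD88-ko and 6233 to 7211 in WT. The groups overlapped for Fn1 (log2 difference -0.12) and F13a1 (0.14). The gate required F4/80, which neutrophils lack or carry at low levels. Trem1 is expressed by both cell types, and in RNA from sorted cells a smaller number of such cells and less Trem1 RNA per cell cannot be told apart. Their part in the difference of Trem1 and Trem3 was not tested. For Treml4, the 7 non-classical monocyte markers had summed signals of 545 to 767 and 1148 to 1262. Within that list Itgal was at least 2.02-fold lower in MyD88-ko. For Ace the WT mean was 1.09-fold above the limits of the MyD88-ko arrays, but its WT replicate 2 value lay below background. The 1.09 is therefore not a firm bound. Nr4a1 had a difference of -0.96, and no gene of the list passed. Of the 7, 4 never exceeded the limit. The list median of -0.96 was -0.45 without WT replicate 1. The part of these cells in the difference of Treml4 was not tested either.

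For Trem2, the 10 macrophage markers had summed signals of 12350 to 12899 in MyD88-ko and 10066 to 11731 in WT, 8 of 10 had positive differences with a median of 0.45, and none passed. WT replicate 1 was the lowest array for 7 of the 10, and without it the median was 0.14. The 7 red pulp macrophage markers, tested because the protocol names spleen, had summed signals of 3685 to 4311 and 2504 to 4411, which overlap. Of the 7, 3 lay under the limit on every array, among them Spic and Cd5l, which define these cells. Another 2, Hmox1 and Axl, lay above it on every array. Spic had a log2 difference of -1.67, and the other 6 had positive differences. The part of macrophage content in the difference of Trem2 was not tested. Markers of conventional dendritic cells (9 measured), plasmacytoid dendritic cells (5), T cells (5), B cells (4), NK cells (4), platelets (4) and melanoma cells (12) included no gene that passed.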

How the data were processed

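RNA of sorted macrophages (100 ng, per the labels' protocols) was hybridised to single-colour Affymetrix arrays. The deposited log2 values were made by the authors with RMA. The submitters' processing notes name Affymetrix Expression Console 1.1 as the software, and no genome build. RMA equalises array distributions by quantiles, so a change of most genes in 1 direction would be removed. Of 28846 rows, 19572 probe sets had 1 symbol in the platform annotation, none had several and 9274 had none. For 55 genes with several probe sets the one with the highest mean was kept, which left 19505 genes.

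The model was fitted in R 4.3.3 with limma 3.58.1 (genotype the only term, 3 residual degrees of freedom, no trend, no filter), with Benjamini-Hochberg adjustment over all genes. The fit was also run on simulated arrays in which all genes had the same spread and the added changes were large. Genes of these data differ in spread, so that run does not show how reliable the calls here are. Arrays have no read depth; their number limits the precision, and the background limit stands in for detection. SDs are over arrays; standard errors come from the fit.

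The genes and lists were chosen with earlier results of these data known. The rule named the 6 genes and Myd88, all genes of each pathway list that passed or else up to 3 with the lowest p above the limit on at least 1 array, defining markers, and the 5 nearest genes by array profile. Fcer1g, Hcst, Plxna1, Blnk, Pglyrp1, the genes of the cluster and its flanks were named beyond it. Of the listed genes, those without a row under their symbol or a synonym were not used here. Symbols, synonyms and gene order came from the RefSeq table of GRCm38.p6. Alternatives covered normalization, level filters, mean of probe sets, moderation, weights per array, a block for the replicate number, a threshold of 0.1 and each array left out; 2 other background limits were added after the data were seen.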

Additional observations from a re-analysis of the deposited data

How the results depend on the processing

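The differences of Trem1, Trem3, Treml4 and Tyrobp, and the contrast of Trem1 with Trem2, kept their direction under every normalization, filter, weighting and left-out array tried. That of Trem2 kept its direction and ranged from 0.45 to 1.78 with 1 array left out, and that of Treml2 ranged from -0.44 to 0.10 and turned without MyD88-ko replicate 2. The 37 calls over all genes became 56 after a repeated quantile normalization, 60 with equal array medians, 65 with cyclic loess, 15 with array weights and 84 at an adjusted p under 0.1, all mostly lower (94.0% to 100% of calls). With 1 array left out limma called 0 to 1 genes, with 1691 to 3762 at an unadjusted p under 0.05. The 3 pathway calls became 5 at an adjusted p under 0.1 and 0 with array weights or with any 1 array left out (27 to 45 at an unadjusted limma p under 0.05); fewer arrays leave fewer degrees of freedom, and the cause was otherwise not tested. Leaving out a WT array leaves 1, whose spread is then taken to be that of the other group. With the replicate number as a block limma called 70 genes, 29 of them among the 37, and 8 pathway genes, and the Trem1 difference was -2.35; same-numbered arrays correlated at 0.059 and 0.105 in their deviations from the group means, so the numbers were not taken as a pairing, and replicate 3 adds nothing to that fit. With a background limit that 99% of the negative controls did not exceed, 1 of the 6 genes, Tyrobp, was above it on any array, against 5 with limits at 95% and 90%, so the levels of the TREM genes lie within the range of the brightest control probe sets.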
